A study of Mus musculus with 4 samples.

Results

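The genes described here are 39 genes of fatty acid oxidation and of the PPAR alpha response in mouse liver. They were taken by symbol from a list of 40 names, in which Dci and Eci1 are the same gene, and all 39 were on the array, among 26135 genes tested. They comprised the receptor gene Ppara itself, 3 genes of fatty acid uptake and activation, 5 of carnitine synthesis and the carnitine shuttle, 8 of mitochondrial beta oxidation and 3 auxiliary enzymes for unsaturated chains. The rest were 5 peroxisomal genes, 4 Cyp4a omega hydroxylases, 4 acyl-CoA thioesterases and 6 genes of ketone bodies, fuel choice and other PPAR alpha responses.

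Liver RNA of 4 male Wrn mutant C57Bl/6 mice, aged 3 months, whose drinking water had held 0.4% vitamin C since they were weaned, was compared with that of 4 untreated male wild-type C57Bl/6 mice of the same age. Wrn encodes a RecQ-type DNA helicase, and the labels name the genotype as Wrn mutant without describing the allele. Each of 4 two-colour Agilent arrays, hereafter arrays 1 to 4, carried 1 mutant in the red dye Cy5 and 1 wild-type animal in the green dye Cy3. Dyes were not swapped and no untreated mutants or treated wild-type mice were analysed here, so the parts of genotype, vitamin C and dye in a ratio cannot be told apart.

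Fatty acids that enter a hepatocyte are bound by FABP1, activated to acyl-CoA, passed into mitochondria through the carnitine shuttle that CPT1A begins, and shortened by beta oxidation, while peroxisomes shorten very long chains and Cyp4a enzymes hydroxylate the far end of the chain. PPAR alpha is the nuclear receptor that fatty acids activate in the liver, above all in fasting. With its partner RXR it binds a direct repeat of the hexamer AGGTCA with 1 base between the copies, and raises transcription of most of the genes described here.

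All values are on the log2 scale. A ratio is mutant over wild type on 1 array, a level is the normalized intensity of 1 animal's channel, errors are SDs over the 4 arrays, and a gene counted as changed at an adjusted p under 0.05 in limma's moderated test over all genes. Levels of different genes come from different probes and are not set against each other. The mutant channel was well above background at 82.4% to 95.6% of probes and the wild-type channel at 84.1% to 96.1%, with array 1 the lowest in both. All 12 hepatocyte markers were well above background on all 4 arrays, and no spot was saturated. The number of arrays limits the precision, and in whole liver fewer cells of a type and less RNA per cell cannot be told apart.

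Promoters of 29 of the 39 genes could be read from RefSeq in build GRCm38.p6, and 3 of them are shown: Fabp1 and Creg1 as the changed genes with a match to the motif below, and Hadha as a changed gene that lies head to head with another gene of the set. The other changed genes with a promoter there, Cpt1a and Ppara, held no match. In the 250 bases before the transcription start, that repeat, read as AGGTCA, any base, AGGTCA, was searched on both strands. With at most 1 mismatch it matched in 1 of the 29 genes, Fabp1, and in 0.484% of 32851 promoters of the same length. The match lies 67 to 55 bases before the start, on the strand opposite to the gene, where it reads AGGCCATAGGTCA. With at most 2 mismatches it matched in 5 of the 29 genes, which are Fabp1, Creg1, Plin2, Cd36 and Acot4, and in 3.24% of all promoters. The promoters of Fabp1 (chr6:71199629-71199878, plus strand) and Creg1 (chr1:165763508-165763757, plus strand) follow, with the match in capitals as the gene's own strand shows it. Hadha (chr5:30154981-30155230, minus strand) held no match in this window, and its start lies 273 bases from that of Hadhb, which is read the opposite way. A match is a description of letters only.
Fabp1: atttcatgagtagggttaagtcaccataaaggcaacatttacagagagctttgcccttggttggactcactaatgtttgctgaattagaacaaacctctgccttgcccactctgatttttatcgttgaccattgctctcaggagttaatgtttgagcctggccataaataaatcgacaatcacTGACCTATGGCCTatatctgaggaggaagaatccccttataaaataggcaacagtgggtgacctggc
Creg1: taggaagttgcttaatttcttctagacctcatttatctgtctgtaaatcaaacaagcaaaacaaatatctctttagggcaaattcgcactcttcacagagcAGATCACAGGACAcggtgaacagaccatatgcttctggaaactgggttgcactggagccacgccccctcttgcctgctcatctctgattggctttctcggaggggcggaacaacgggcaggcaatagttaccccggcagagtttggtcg
Hadha: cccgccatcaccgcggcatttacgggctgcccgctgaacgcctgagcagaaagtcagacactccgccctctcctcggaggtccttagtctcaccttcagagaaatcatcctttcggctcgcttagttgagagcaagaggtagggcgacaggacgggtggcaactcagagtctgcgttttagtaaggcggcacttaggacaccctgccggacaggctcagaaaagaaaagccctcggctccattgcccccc

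The comparison asked which of these genes differed between livers of vitamin C-treated Wrn mutants and of wild-type mice. Of the 39 genes, 4 rose and 3 fell. Fabp1, Acaa2, Creg1 and Tmlhe were higher in mutants, and Cpt1a, Hadha and Ppara were lower. Of all 26135 genes, 6.64% were called higher and 5.57% lower, or 12.2% in either direction, against 7 of the 39 genes here. The median mean log2 ratio was 0.02 over the 39 genes and 0.01 over all genes. With median centring in place of loess there were 11 higher and 0 lower genes, and with Agilent's processed signals limma called 1, Cpt1a, as lower (3.1% of all genes in either direction). Each call rests on few arrays. Without array 2 limma called 0 of the 39 genes and 0.0727% of all genes. At an unadjusted p under 0.05, 7 of the 39 were then higher and 9 lower, and the share of all genes was not counted. With all 4 arrays that cut gave 9 higher and 9 lower of the 39, against 18.1% and 14.1% of all genes. Without array 1 limma called Cpt1a alone (1.92% of all genes), and without array 4 it called Fabp1, Acaa2 and Cpt1a (1.76% of all genes). Each of the 7 genes had ratios of 1 sign on all 4 arrays. Leaving out 1 array therefore could not change the sign of its mean. Levels of mutants and wild-type animals did not overlap in 8 of the 39 genes, 5 higher and 3 lower, and in 3.29% (higher), 4.2% (lower) and 7.49% (either direction) of 26028 genes with levels in all animals.

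**Figure D1:**
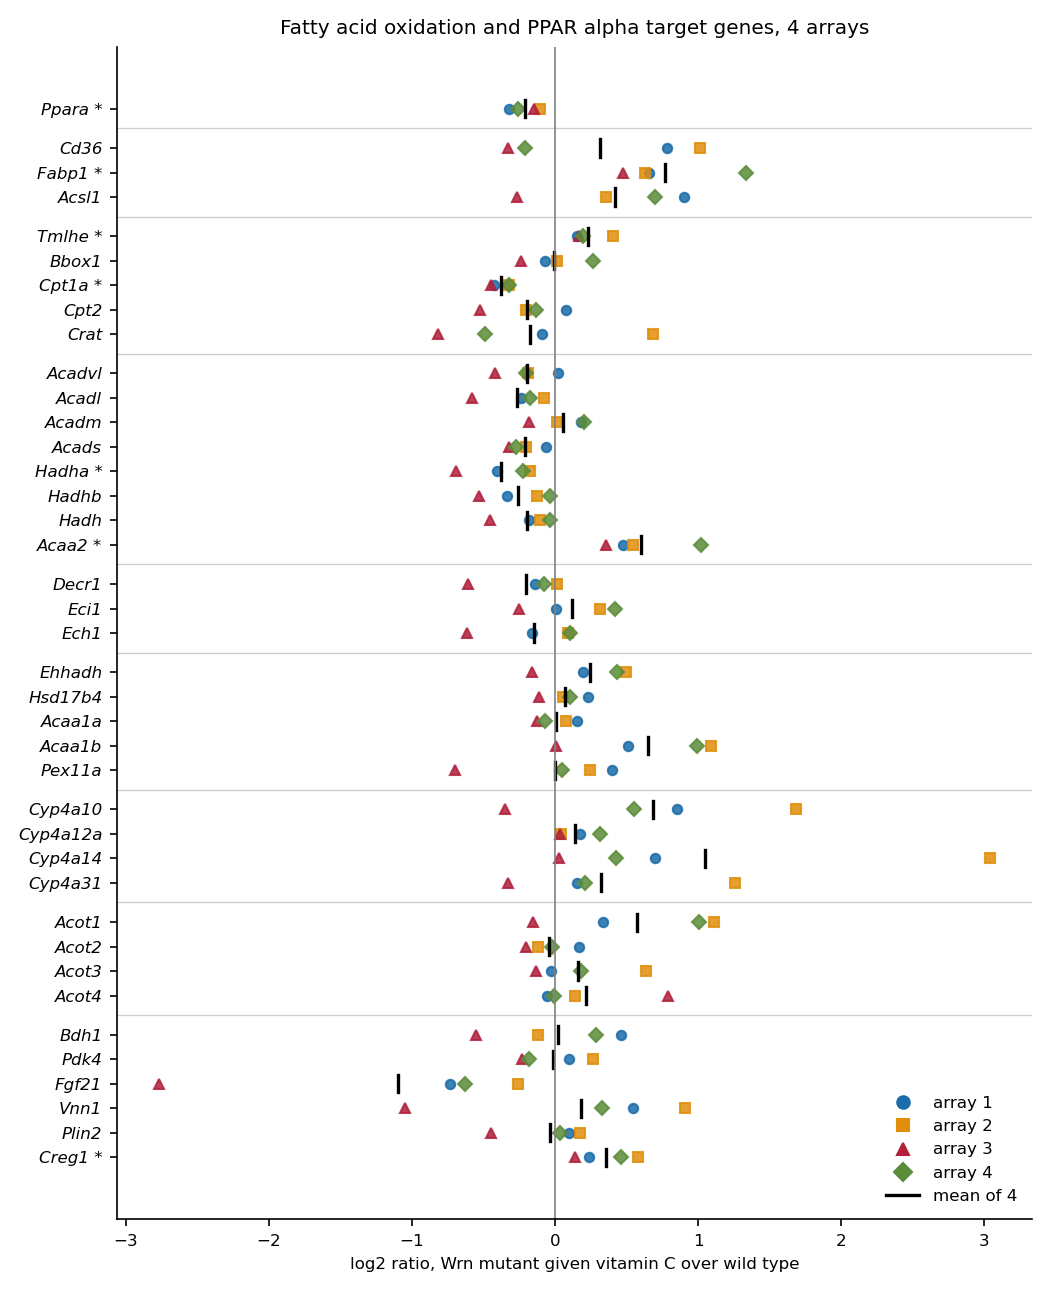
Log2 ratio of each of the 39 genes on the 4 arrays (x axis, Wrn mutant given vitamin C over wild type; symbols by array, black bar the mean), grouped by role from the receptor at the top to other targets at the bottom, with asterisks at the 7 changed genes. The array 3 triangle is the leftmost symbol in 36 of the 39 genes.

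Ppara, the receptor gene, had levels of 15.21, 15.51, 15.41 and 15.36 in mutants 1 to 4, against 15.53, 15.61, 15.55 and 15.62 in wild-type animals 1 to 4. All 4 mutants lay below all 4 wild-type animals, but the highest mutant came within a short distance of the lowest wild type. The ratios on arrays 1 to 4 were -0.32, -0.11, -0.15 and -0.26, a mean of -0.21 ± 0.10 (SD, n = 4; adjusted p = 0.0471, limma), or 1.15-fold lower. The call was close to the threshold, and with the authors' deposited ratios in the same limma test the adjusted p was 0.0540. It was lost without any 1 of the arrays, with adjusted p between 0.0807 and 0.148 in limma. With median centring in place of loess the mean ratio was 0.17, on the other side of 0.

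Fabp1, the abundant fatty acid binding protein of hepatocytes, showed the largest increase among the changed genes. Its levels were 17.58, 17.75, 17.57 and 17.79 in mutants, against 16.92, 17.12, 17.10 and 16.46 in wild-type animals. The groups did not overlap, and the wild-type animal of array 4 was the lowest of all. The ratios of 0.65, 0.63, 0.47 and 1.33 gave a mean of 0.77 ± 0.38 (SD, n = 4; adjusted p = 0.0227, limma), or 1.71-fold. Without array 1 or array 2 the mean was 0.81 or 0.82 and the adjusted p 0.0667 or 0.0775 in limma, and with median centring the mean of all 4 arrays was 1.37. Cd36, a fatty acid transporter at the cell surface, and Acsl1, the main long-chain acyl-CoA synthetase of liver, did not pass the test. The Cd36 ratios split the arrays in pairs, with 0.78 and 1.01 on arrays 1 and 2 and -0.33 and -0.21 on arrays 3 and 4, and its second probe did the same at 0.75, 1.02, -0.18 and -0.02. The mean of the first was 0.31 ± 0.68 (SD, n = 4).

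The probes of Acsl1 disagreed in sign. The brightest gave 0.90, 0.35, -0.27 and 0.70, a mean of 0.42 ± 0.51 (SD, n = 4), whereas the second gave -0.06, -0.08, -0.88 and 0.11 and the third -0.13, -0.21, -0.97 and 0.06. All 3 had their lowest ratio on array 3. With the mean of the probes the Acsl1 ratio was -0.04, so no direction can be given for this gene. The third probe is shown because it disagrees with the brightest.
Acsl1 probe 3: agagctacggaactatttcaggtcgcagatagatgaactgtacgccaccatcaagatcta

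In the carnitine group, Tmlhe rose and Cpt1a fell. Tmlhe encodes the first enzyme of carnitine synthesis, a dioxygenase of the class for which vitamin C serves as a cofactor, and Bbox1 encodes the last. Tmlhe had levels of 10.98, 10.88, 10.70 and 10.62 in mutants, against 10.82, 10.48, 10.54 and 10.43 in wild-type animals. The groups overlapped, although the mutant was the higher animal on every array, with ratios of 0.16, 0.41, 0.17 and 0.19 and a mean of 0.23 ± 0.12 (SD, n = 4; adjusted p = 0.0453, limma), or 1.17-fold. The other Tmlhe probes, to which the deposited annotation assigns no RefSeq or Ensembl transcript, had means of 0.00 and 0.10 and were not called. With the mean of the 3 probes, 0.11, the call was lost, as it was without any 1 of the arrays (adjusted p between 0.0782 and 0.115 in limma). Bbox1 had a mean ratio of -0.01 ± 0.21, with ratios of both signs.

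Cpt1a, which commits long-chain fatty acids to mitochondrial oxidation, had the smallest adjusted p of the 39 genes. Its levels were 14.72, 14.94, 14.94 and 14.95 in mutants, against 15.15, 15.26, 15.39 and 15.27 in wild-type animals. Every mutant was below every wild-type animal. The ratios were nearly equal on the 4 arrays, at -0.43, -0.32, -0.45 and -0.32, and gave a mean of -0.38 ± 0.07 (SD, n = 4; adjusted p = 0.0133, limma), or 1.30-fold lower. A second Cpt1a probe gave -0.13, -0.28, -0.61 and -0.52 with the same mean of -0.38 and was also called (adjusted p = 0.0328 over all probes, limma). The call was lost without array 2, at -0.40 with an adjusted p of 0.0559 in limma, and under median centring, at -0.04 with an adjusted p of 0.719. Cpt2, the inner-membrane partner of Cpt1a, had a mean of -0.20 ± 0.25, and Crat, a carnitine acetyltransferase, -0.18 ± 0.65, with Crat ratios from -0.82 on array 3 to 0.68 on array 2.

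Mitochondrial beta oxidation held changes in both directions. Acaa2, the thiolase that releases acetyl-CoA, had levels of 17.86, 18.00, 17.94 and 18.06 in mutants, against 17.38, 17.46, 17.58 and 17.05 in wild-type animals. The groups did not overlap. The ratios of 0.48, 0.54, 0.36 and 1.02 had a mean of 0.60 ± 0.29 (SD, n = 4; adjusted p = 0.0229, limma), or 1.51-fold, and without array 1 or array 2 the adjusted p was 0.0644 or 0.0813. With median centring its mean was 1.24. Hadha, the alpha subunit of the trifunctional protein, had levels of 11.54, 11.69, 11.63 and 11.66 in mutants, against 11.95, 11.87, 12.32 and 11.89 in wild-type animals. No mutant reached the level of any wild-type animal, and the ratios of -0.41, -0.17, -0.69 and -0.23 had a mean of -0.38 ± 0.23 (SD, n = 4; adjusted p = 0.0411, limma), or 1.30-fold lower. Only the brightest Hadha probe was called. The second was positive on all 4 arrays, with a mean of 0.13 ± 0.11, and the third was mixed, with a mean of -0.26 ± 0.35, so the fall of Hadha rests on 1 of its 3 probes, and without any 1 of the arrays the adjusted p was between 0.0649 and 0.119 in limma.

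Hadhb, the beta subunit, whose start lies head to head with that of Hadha, had ratios of -0.34, -0.13, -0.53 and -0.04 and did not pass the test, at -0.26 ± 0.22 (SD, n = 4; adjusted p = 0.0866, limma). The acyl-CoA dehydrogenases open each round of the cycle for different chain lengths. Acads, for short chains, was negative on all 4 arrays, with a mean of -0.21 ± 0.11 (SD, n = 4; adjusted p = 0.0512, limma), and Acadl, for long chains, likewise, at -0.27 ± 0.22 (SD, n = 4; adjusted p = 0.0797, limma). Acadvl, for very long chains, had -0.20 ± 0.18, Hadh, the medium and short-chain hydroxyacyl-CoA dehydrogenase, -0.19 ± 0.19, and Acadm, for medium chains, 0.05 ± 0.18. In all, 6 of the 8 mitochondrial genes had a mean below 0, and 1 of these 6, Hadha, was called, while 6 of the 8 were lower at an unadjusted p under 0.05 in limma, against 14.1% of all genes. These counts hold with loess: with median centring the means of Acadvl, Hadhb and Hadh were 0.31, 0.08 and 0.09, and Hadha, at -0.30, was not called (adjusted p = 0.0624, limma).

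The auxiliary enzymes, which prepare double bonds for the cycle, included no changed gene. At an unadjusted p under 0.05 in limma there were 0 of the 3, against 18.1% of all genes higher and 14.1% lower. The dienoyl-CoA reductase gene Decr1 had a mean of -0.20 ± 0.28, Ech1, a dienoyl-CoA isomerase, -0.14 ± 0.33, and Eci1, an enoyl-CoA isomerase, 0.12 ± 0.30. Their array 3 ratios were -0.61, -0.61 and -0.25, each the lowest of its gene.

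None of the 5 peroxisomal genes passed limma's test, and 4 of the 5 had a mean above 0. At an unadjusted p under 0.05, 1 of the 5 was higher, against 18.1% of all genes. Acaa1b, one of a pair of peroxisomal thiolase genes, came nearest. It had levels of 16.68, 16.87, 16.46 and 16.51 in mutants, against 16.17, 15.77, 16.45 and 15.51 in wild-type animals. The groups did not overlap, although mutant 3 and wild-type animal 3 were nearly equal. The ratios of 0.51, 1.09, 0.01 and 0.99 had a mean of 0.65 ± 0.50 (SD, n = 4; adjusted p = 0.0535, limma). Ehhadh, the peroxisomal bifunctional enzyme, had a mean of 0.24 ± 0.30, Hsd17b4, the other bifunctional enzyme, 0.07 ± 0.14, and Pex11a, which acts in peroxisome division, 0.00 ± 0.49, with ratios of 0.40, 0.25, -0.70 and 0.05.

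Acaa1a, the other thiolase of the pair, had a mean of 0.01 ± 0.13 on its brightest probe, which is assigned to Acaa1a alone. The ratios of this probe were 0.15, 0.08, -0.12 and -0.07. Its second probe, to which the deposited annotation assigns transcripts of both Acaa1a and Acaa1b, gave 0.37, 0.76, -0.23 and 0.77, in the same order of arrays as Acaa1b except that arrays 2 and 4 changed places. The third, also assigned to Acaa1a alone, gave 0.20, 0.38, -0.44 and 0.27. Signal of this pair is uncertain between the copies. The third probe is shown because it follows the order of arrays of Acaa1b, which the brightest Acaa1a probe does not.
Acaa1a probe 3: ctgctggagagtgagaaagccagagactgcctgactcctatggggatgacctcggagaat

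The Cyp4a hydroxylases held the highest positive ratios of the set on a single array, 3.04 for Cyp4a14 and 1.69 for Cyp4a10. None of the 4 passed limma's test, and 2 were higher at an unadjusted p under 0.05, against 18.1% of all genes. Cyp4a14, a classical PPAR alpha target, had levels of 11.94, 14.09, 11.27 and 11.33 in mutants, against 11.24, 11.04, 11.24 and 10.91 in wild-type animals. Mutant 2 stood far above all other animals. The groups did not overlap, although the lowest mutant, at 11.27, and the highest wild-type animals, at 11.24, were nearly equal. The ratios of 0.70, 3.04, 0.03 and 0.43 had a mean of 1.05 ± 1.36 (SD, n = 4; adjusted p = 0.167, limma). Cyp4a10 followed, with levels of 13.44, 14.85, 13.50 and 13.34 in mutants, against 12.59, 13.16, 13.84 and 12.79 in wild-type animals. Mutant 2 was again the highest, but wild-type animal 3 lay above the other 3 mutants, and the mean ratio was 0.68 ± 0.84 (SD, n = 4; adjusted p = 0.151, limma).

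Cyp4a31 had the same order of arrays as Cyp4a10 at its extremes, with 1.26 on array 2 and -0.33 on array 3 and a mean of 0.32 ± 0.67. It was well above background on 3 of the 4 arrays. Cyp4a12a, the male-predominant member, was nearly flat at 0.14 ± 0.13. Cyp4a genes are closely related copies, and 2 of the 4 Cyp4a10 probes are assigned to Cyp4a10 and Cyp4a32 in the deposited annotation, and the Cyp4a12a probe to Cyp4a12a and Cyp4a12b. All 4 Cyp4a10 probes had their highest ratio on array 2 and their lowest on array 3. A Cyp4a10 probe with a shared assignment and the Cyp4a31 probe are shown for this reason.
Cyp4a10 probe 4: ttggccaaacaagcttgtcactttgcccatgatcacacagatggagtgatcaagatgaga
Cyp4a31 probe 1: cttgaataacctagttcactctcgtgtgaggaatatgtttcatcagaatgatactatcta

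The acyl-CoA thioesterases, which split acyl-CoA back to the free acid, contained no changed gene in limma's test. At an unadjusted p under 0.05, 1 of the 4 was higher, against 18.1% of all genes. Acot1, the cytosolic member, had levels of 13.16, 13.58, 12.65 and 12.53 in mutants, against 12.83, 12.47, 12.80 and 11.52 in wild-type animals. The groups overlapped, and the ratios of 0.33, 1.11, -0.15 and 1.00 had a mean of 0.57 ± 0.60 (SD, n = 4; adjusted p = 0.107, limma). Acot2 had a mean of -0.05 ± 0.16, Acot3 0.16 ± 0.34 and Acot4 0.22 ± 0.39. Acot2 and Acot3 were well above background on 3 of the 4 arrays. Of the whole set only Acot4 had its highest ratio, 0.79, on array 3, but its second probe had its lowest there, at -0.19.

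Fgf21 encodes the hepatic hormone that PPAR alpha induces in fasting, and it had the most negative mean of the set without passing the test. Its levels were 9.49, 10.39, 9.90 and 9.91 in mutants, against 10.22, 10.65, 12.68 and 10.54 in wild-type animals. The mutant was the lower animal on every array, the groups overlapped, and wild-type animal 3 stood far above the other 7 animals. The ratios of -0.73, -0.26, -2.77 and -0.63 had a mean of -1.10 ± 1.13 (SD, n = 4; adjusted p = 0.103, limma). A second probe, whose sequence follows, gave -0.77, -0.41, -3.05 and -0.81. Without array 3 the mean of the brightest probe was -0.54 and the adjusted p 0.0417 (limma), so Fgf21 passed without the array that held its most negative ratio.
Fgf21 probe 2: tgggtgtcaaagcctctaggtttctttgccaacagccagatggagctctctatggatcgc

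Creg1, a secreted glycoprotein gene, was the 1 changed gene among these other targets. It had levels of 15.99, 16.09, 15.94 and 15.98 in mutants, against 15.75, 15.51, 15.80 and 15.52 in wild-type animals. The groups did not overlap, and the ratios of 0.24, 0.58, 0.14 and 0.46 had a mean of 0.35 ± 0.20 (SD, n = 4; adjusted p = 0.0361, limma), or 1.28-fold. Without array 3 Creg1 was still called, and without array 1, 2 or 4 its adjusted p was 0.0805, 0.108 or 0.109 in limma. With median centring its mean was 0.77. All 3 Creg1 probes were called, with means of 0.35, 0.36 and 0.29. Vnn1, the pantetheinase gene, had ratios of 0.54, 0.91, -1.05 and 0.33, a mean of 0.18 ± 0.85, and again wild-type animal 3 was the highest of all, at 12.57. Bdh1, which interconverts the ketone bodies, had a mean of 0.02 ± 0.45, Pdk4, the kinase that inhibits pyruvate dehydrogenase, -0.01 ± 0.23, and Plin2, a coat protein of lipid droplets, -0.04 ± 0.28.

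**Figure D2:**
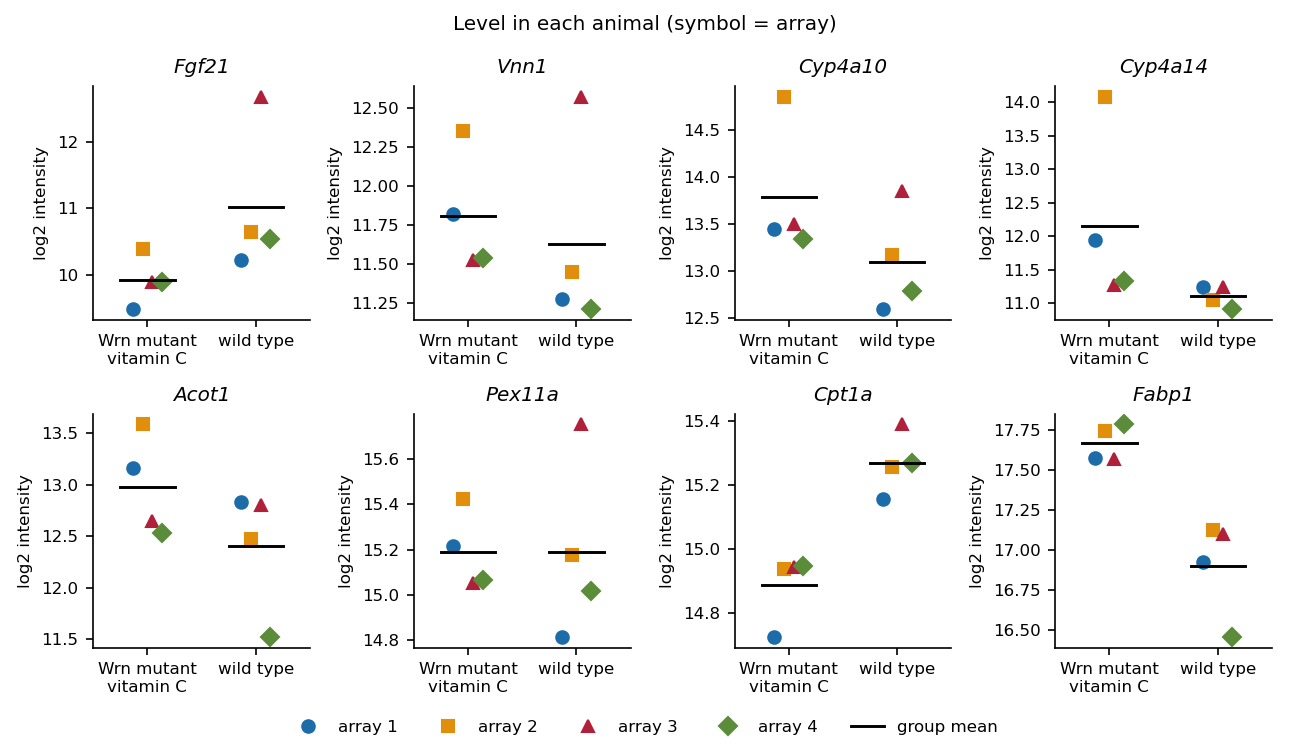
Level of 8 genes in each animal (y axis, log2 intensity; mutants given vitamin C left, wild type right; symbols by array, black bar the group mean; each panel has its own scale). Wild-type animal 3 is the highest animal for Fgf21, Vnn1 and Pex11a, and mutant 2 is the highest for Cyp4a10, Cyp4a14 and Acot1. The groups do not overlap for Cpt1a, Fabp1 and, by a narrow margin, Cyp4a14.

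Across roles, the same animals stood at the extremes of many of the 39 genes. The lowest of a gene's 4 ratios was on array 3 in 36 of the 39 genes, against 27.4% of all genes tested, and the exceptions were Ppara, Tmlhe and Acot4. The median ratio of the 39 genes was 0.15, 0.14, -0.27 and 0.10 on arrays 1 to 4, against 0.00, 0.01, 0.03 and 0.02 over all genes. Because each array carried 1 animal of each group, the levels were then compared within a group. Mutant 3 had the lowest level of the 4 mutants in 19 of the 39 genes (all genes 24.1%), and wild-type animal 3 had the highest level of the 4 wild-type animals in 31 of the 39 (all genes 18.6%). Mutant 2 was the highest mutant in 21 of the 39 genes (all genes 19.2%), and wild-type animal 4 the lowest wild type in 20 of the 39 (all genes 24.6%). The genes of the set are not independent of each other, so these are counts over genes in 8 animals, and no test was made of them.

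**Figure D3:**
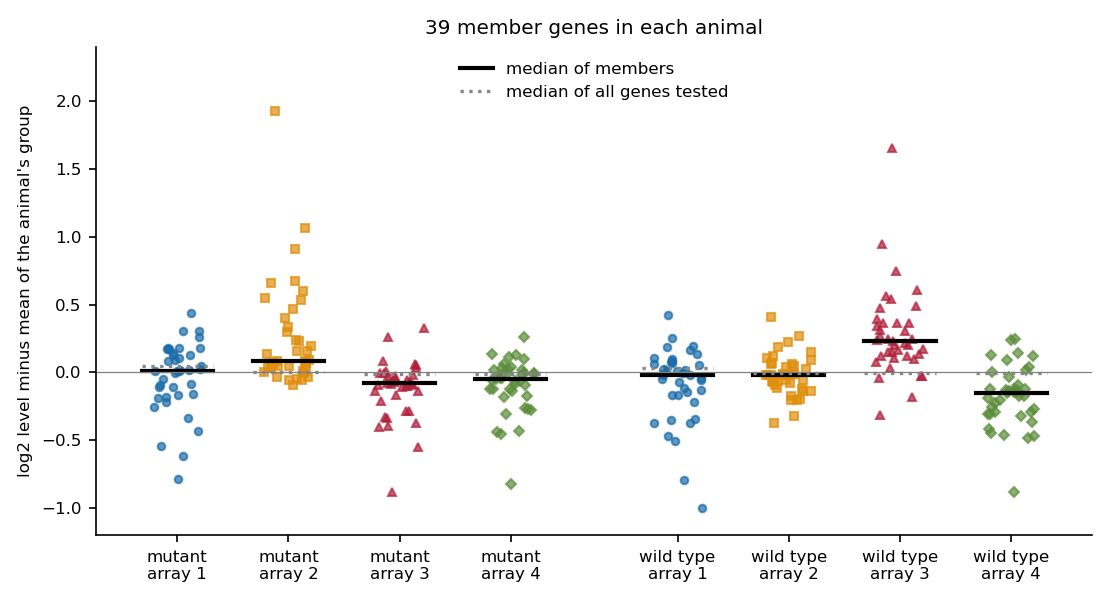
Deviation of each of the 39 genes in each animal from the mean of its own group (y axis, log2 units; mutants left, wild type right; black bar the median of the 39 genes, dotted bar the median of all genes tested). The median of wild-type animal 3 is 0.23 and that of wild-type animal 4 is -0.15, while the medians of all genes lie near 0 in every animal.

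The spread between arrays was wide in these genes. The SD of the 4 ratios had a median of 0.28 over the 39 genes, against 0.104 over all genes tested. The SD was larger among wild-type animals than among mutants in 25 of the 39 genes, against 49.2% of all genes. In the deviation of each animal from its group, wild-type animal 3 had a median of 0.23 over the 39 genes and mutant 3 one of -0.08. Without array 3, limma on the other 3 arrays called 9 genes higher (2.51% of all genes) and 2 lower (2.61% of all genes, and 5.13% in either direction). The 9 were Fabp1, Acsl1, Acaa2, Ehhadh, Acaa1b, Cyp4a10, Acot1, Vnn1 and Creg1, and the 2 were Cpt1a and Fgf21, with adjusted p from 0.0274 for Acaa1b to 0.0472 for Cyp4a10. Of the 7 genes called on 4 arrays, 4 were among them, and Tmlhe, Hadha and Ppara were not.

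Markers of other cell types were set beside this pattern. The hepatocyte markers had their lowest ratio on array 3 in 2 of 12 genes. Other lists had a shared extreme on another array. The lowest ratio was on array 4 in 11 of 11 Kupffer cell markers and 9 of 10 sinusoidal endothelial markers (all genes 23.7%). On the log2 scale the summed level of the hepatocyte markers was 20.89 to 20.97 in mutants and 20.41 to 20.60 in wild-type animals, where animal 3 was the lowest. Of the 12, 6 were called higher (Alb, Apoa2, Tat, F2, Ttr and Apoc3) and 1 lower (Hnf4a). The summed level of 11 Kupffer cell markers was 15.98 to 16.43 in mutants and 16.09 to 16.77 in wild-type animals, with animal 4 the highest, and limma called 0 of the 11, none at an unadjusted p under 0.05. The 10 sinusoidal endothelial markers summed to 15.65 to 15.78 in mutants and 15.84 to 16.08 in wild-type animals, with Clec4g and Kdr called lower. The 10 adipocyte markers summed to 17.61 to 17.97 in mutants and 16.19 to 17.62 in wild-type animals, where animal 4 was the lowest, with Cfd called higher. All 10 were well above background on all 4 arrays, as were 8 of 8 pancreas and 7 of 9 muscle markers. Signal above background therefore does not tell whether a cell type was present. Muscle markers had 0 calls of 9 in limma, none at an unadjusted p under 0.05, and pancreas markers 1 of 8, Ctrb1. The part of these cell types in the ratios of the 39 genes was not tested.

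Other genes of the same pathways were counted in the same way. Of 41 further genes of fatty acid oxidation and ketone bodies, 4 were higher and 3 lower, against 6.64% and 5.57% of all genes. The lowest ratio was on array 3 in 23 of the 41, against 27.4% of all genes. Among the higher genes, Hacl1, of peroxisomal alpha oxidation, rose by 0.65 ± 0.28, Bdh2 by 0.83 ± 0.35 and Acad9 by 0.35 ± 0.14. Eci3, a peroxisomal isomerase, fell by 0.51 (SD 0.27), the carnitine transporter gene Slc22a5 by 0.48 (SD 0.18) and Acox3 by 0.24 (SD 0.07).

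Of 49 further targets and partners of PPAR alpha, 3 were higher and 8 lower, against 6.64% and 5.57% of all genes. The lowest ratio was on array 3 in 24 of the 49, against 27.4% of all genes. Me1, the malic enzyme, rose by 0.75 ± 0.55, Ephx2, a soluble epoxide hydrolase, by 0.51 ± 0.36 and Acot13 by 0.45 ± 0.15. The largest decreases were in G0s2, an inhibitor of adipose triglyceride lipase, which fell by 0.94 (SD 0.46), Txnip, by 0.92 (SD 0.41), Klf10, by 0.81 (SD 0.41), and Angptl4, a secreted inhibitor of lipoprotein lipase, by 0.45 (SD 0.18). Pnpla2, which encodes adipose triglyceride lipase itself, fell by 0.34 (SD 0.03) and was the most even of these over the arrays. The other 3 lower genes had ratios between -0.29 and -0.21, and Rxra, the main RXR of liver, had a mean of -0.06 ± 0.13 and was not called.

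**Figure D4:**
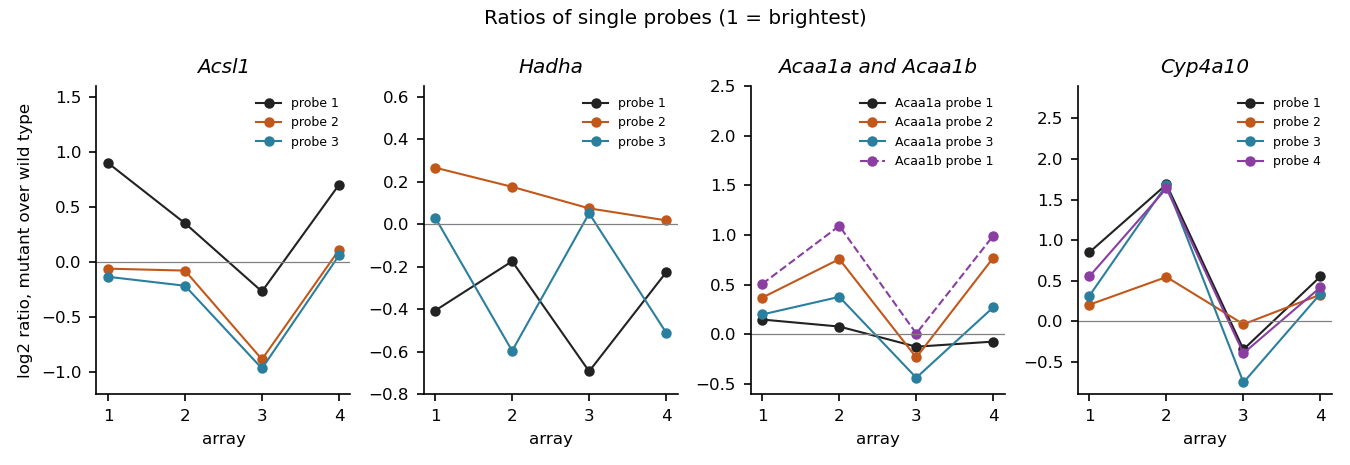
Log2 ratio of single probes on the 4 arrays (x axis, array; y axis, mutant over wild type; probe 1 is the brightest of its gene; lines join the values of a probe). The Acsl1 probes differ in level but all dip on array 3, and the Acaa1a probe assigned to both thiolases runs close to the Acaa1b probe. The Hadha probes disagree in sign, and only probe 1 is assigned to a Hadha transcript in the deposited annotation.

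Probes were then counted in place of genes. Of the 58 probes of the 39 genes, 12 were called, 7 higher and 5 lower, against 13% of all 39080 probes kept. In 27 genes a single probe stood for the gene. In the other 12 a second measurement was at hand, and in 4 of these at least 1 probe had a mean of the opposite sign to the brightest. For Hadha and Tmlhe that probe has no RefSeq or Ensembl transcript in the deposited annotation. Per the authors' deposited table, 27 of the 94 spots of these genes had an adjusted p under 0.05, against 9.87% of its spots, but 5 genes account for all 27, and Acaa2 and Cpt1a, printed on the array in 10 or more copies, for most of them.

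The normalization moved the ratios of the bright probes. With each array centred on its median in place of the intensity-dependent loess curve, 11 of the 39 genes were called higher (13.1% of all genes) and 0 lower (5.79% of all genes, and 18.9% in either direction). At an unadjusted p under 0.05 in limma 2 of the 39 were lower, against 9 with loess, and the share of all genes at that cut was not counted with median centring. The 11 were Fabp1, Acsl1, Tmlhe, Acadm, Acaa2, Ehhadh, Hsd17b4, Acaa1a, Acaa1b, Cyp4a12a and Creg1. The median of the 39 genes was then 0.28, against 0.02 with loess, while that of all genes was 0.03 against 0.01. The means of Fabp1, Acaa2 and Creg1 were larger than with loess and of the same sign. Ppara turned to 0.17. Hadha, with a dimmer probe, had -0.30 and Cpt1a had -0.04, both without a call.

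**Figure D5:**
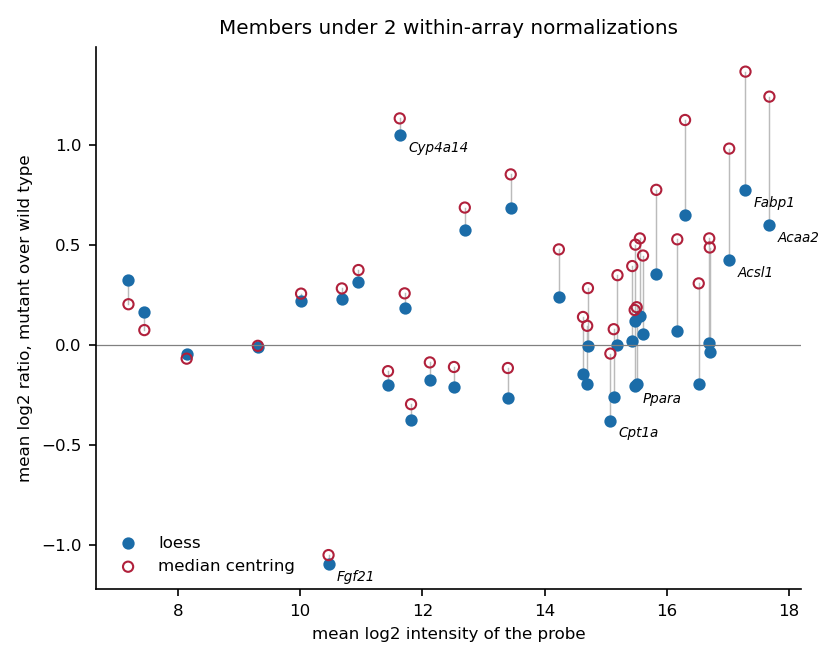
Mean log2 ratio of the 39 genes (y axis, mutant over wild type) against the mean log2 intensity of the gene's probe (x axis), with loess (filled) and with median centring (open), joined for each gene. The 2 values lie closer together for dim probes than for bright ones.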

How the data were processed

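Per the file headers, the spot intensity of each channel came from Agilent Feature Extraction 10.5.1.1, and the mouse design was annotated on mm9. The deposited scanner files also hold processed signals and a log10 ratio of red over green. The authors' deposited table gives, for 43379 spots, a log2 ratio for each array and their mean, raw and adjusted p-value columns, and scores (a moderated statistic, log odds and a signed fold). The submitters' processing notes name limma, without a version. The authors' ratios matched background subtraction and loess of the scanner values on every array (lowest r = 0.99999 over probes, which are not independent).

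The values here were computed from median intensities in R 4.3.3 with limma 3.58.1. Background was corrected by normexp with an offset of 50, ratios were normalized by loess with control spots at weight 0, and control and outlier spots were left out. Spots of a probe were averaged, and 39080 of 41174 probes were kept, as well above background in Cy5 on 3 arrays or in Cy3 on 3 arrays. The brightest probe stood for a gene, named by the deposited symbol. lmFit and eBayes tested each gene's mean ratio over the 4 arrays against 0. Benjamini-Hochberg adjustment ran over 26135 genes, of which 5448 were probes without a symbol. Levels per channel followed loess and Aquantile and can carry dye bias. The arrays shared 1 slide and 1 scan time, and the labels call the 4 pairs independent biological replicates. Pairs of arrays had r between 0.376 and 0.573 across genes. The test was checked on simulated arrays with independent probes and no dye bias, so the check does not cover dye bias or effects that genes share on an array.

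The 39 genes, the further lists and the rule for naming genes (every gene of the set, and the called genes of the other lists, up to 5 in each direction, with Angptl4 and Rxra always) were chosen with earlier results of these data known. A few of the items so chosen are not reported here. Marker genes are named where they passed the threshold. Alternatives covered background, normalization, filter, probe rule, naming, moderation, array weights, the pairing of channels, the threshold, the authors' ratios and leaving out each array. Sequences of promoters are from RefSeq (GRCm38.p6) and those of probes from the deposited files. For 10 of the 39 genes no promoter was used here.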

Additional observations from a re-analysis of the deposited data

Results flagged for a closer look

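In each of the 39 genes, the 4 mutant levels, the 4 wild-type levels and the 4 ratios were searched for an animal or array far from the other 3 by Dixon's gap criterion. Of 117 such sets 9 stood out, and chance gives about 1 in 20. For Cyp4a10 mutant 2 was far above the other mutants, at a level of 14.9 (log2). For Acsl1 mutant 1 was far above the other mutants, at 17.5, while for Cpt1a it was far below them, at 14.7. For Acads mutant 1 was the high one among mutants, at 12.6, and wild-type animal 2 the low one among wild-type animals, also at 12.6 (12.58 and 12.55 to 2 decimals). For Ech1 wild-type animal 3 was far above the other wild-type animals, at 15.1. For Acot2, a dim probe, array 1 gave the low value in both channels, 7.34 in the mutant and 7.18 in the wild-type animal. The single ratio that stood apart was that of Tmlhe on array 2, at 0.41. Without array 2 the Tmlhe mean was 0.17 and was not called.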

How the results depend on the processing

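Leaving out 1 array at a time left limma with 3 arrays, and the counts of called genes ranged from 0 to 9 higher and 0 to 2 lower among the 39 genes, 10 to 657 and 9 to 683 among all genes, 0 to 6 and 0 to 9 among the further oxidation genes and PPAR alpha targets (either direction), and 0 to 17 among the probes of the 39 genes. The lowest counts came without array 2, and the highest without array 3. The median ratio of the 39 genes ranged from -0.02 to 0.13. Median centring gave 11 higher and 0 lower genes (3418 higher among all genes), 17 further oxidation genes, 19 probes and a median of 0.28, so the split of calls among the 39 genes depends on the normalization. Agilent's processed signals gave 0 and 1, with 405 and 406 among all genes, 3 in each further list and 1 probe. At an adjusted p under 0.01 there were 0 and 0, with 49 and 42 among all genes, 1 further oxidation gene, 0 further targets and 0 probes. With the channels as separate samples, without the array as replicate block, there were 0 and 0, with 16 and 8 among all genes and 0 in both further lists and among the probes. At an unadjusted p under 0.05 in limma this setting gave 4 higher and 5 lower of the 39 genes, and the share of all genes was not counted. Beside the 0 calls without array 2, 7 genes were higher and 9 lower at an unadjusted p under 0.05 in limma, and the share of all genes at that cut was not counted.

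Of 621 values of single genes under the alternatives, 531 kept direction and call, 40 lost the call, 16 gained one and 34 changed sign; the cause was not tested. With median centring the sign turned for Ppara (0.17), Bbox1 (0.28), Cpt2 (0.19), Acadvl (0.31), Hadhb (0.078), Hadh (0.095), Ech1 (0.14), Pex11a (0.35) and Plin2 (0.49). With Agilent's processed signals it turned for Acadm (-0.094), Acaa1a (-0.13), Acot2 (0.081), Bdh1 (-0.14) and Pdk4 (0.074). Array weights turned Bbox1 (0.0076) and Pex11a (0.033), the mean of probes Acsl1 (-0.040), no background correction Pex11a (0.00086), plain subtraction Acaa1a (-0.00076) and the authors' ratios Acaa1a (-0.00079). Leaving out 1 array turned the sign of further genes, with ranges of -0.10 to 0.068 for Bbox1, -0.038 to 0.053 for Acaa1a, -0.13 to 0.21 for Bdh1, -0.060 to 0.59 for Vnn1, -0.46 to 0.035 for Crat, -0.23 to 0.011 for Ech1, -0.13 to 0.23 for Pex11a, -0.12 to 0.0079 for Acot2, -0.10 to 0.060 for Pdk4 and -0.11 to 0.10 for Plin2. Of the called genes, Cpt1a was called in 13 of 16 alternatives at the same threshold, Fabp1 and Acaa2 in 12, Creg1 in 11, Tmlhe in 9, Hadha in 8 and Ppara in 6. Some alternatives left the ratios of these genes as they were. They were the changes of the filter, naming by accession and, for genes with 1 probe, the mean of probes. The counts of kept values and of calls are therefore not counts of independent checks.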
